A study of Homo sapiens with 6 samples.

Results

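IL33 and 7 further genes of the interleukin-1 system were examined in DLD1, an established cell line from a human colorectal adenocarcinoma. The 8 genes were the cytokine genes IL33, IL1A, IL1B and IL18, the antagonist gene IL1RN, and the receptor genes IL1R1, IL1RAP and IL1RL1. They were taken from 18132 measured genes as all probe sets annotated with 1 of these symbols alone, which gave 19 of 44988 single-symbol probe sets, and the probe set with the highest mean over all arrays served as the main value of each gene. IL33 was chosen by its log2 difference in the comparison described here and the others as its relatives, with results of that comparison known, so the differences of the 8 genes are given as a description, without p-values.

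The study compared cells infected with lentivirus carrying a CDKL1 shRNA, a short hairpin RNA aimed at a kinase of the cyclin-dependent kinase-like family, with cells infected with lentivirus carrying a control shRNA. Each group held 3 samples of the DLD1 line, grown in the same serum-containing medium, and both groups carry a lentivirus and an shRNA. Total RNA of each sample was read on 1 Affymetrix array, and the values are log2 expression levels normalised by the authors with the RMA method, so a difference of 1 is a doubling. The labels give neither the hairpin sequences nor the time after infection, and do not say whether the samples of a group came from separate infections.

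Interleukin-1 family cytokines are made mostly without a signal peptide and act as alarm signals between damaged or infected epithelium and immune cells. IL-33 is held in the nucleus of epithelial and endothelial cells and, once released, binds the receptor ST2 (encoded by IL1RL1) together with the shared co-receptor encoded by IL1RAP. IL-1 alpha and IL-1 beta bind the receptor encoded by IL1R1 with the same co-receptor, and the antagonist encoded by IL1RN blocks that receptor. IL-18, like IL-1 beta, is cut to its active form by inflammatory caspases and uses receptor chains of its own. The activated receptors signal through MyD88 and IRAK kinases to NF-kappaB.

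IL33 is the gene on which the results turn, so the annotated regions before its starts are shown. The RefSeq table of build GRCh38.p14 held 15 windows for 7 of the 8 genes, of which 2 belong to IL33, both on the plus strand. The 250 bases before each start are printed 5′ to 3′, from chr9:6214899-6215148 and chr9:6215557-6215806. Capitals would mark a match to 1 of 4 motifs on either strand, and neither window holds one.
IL33 first start: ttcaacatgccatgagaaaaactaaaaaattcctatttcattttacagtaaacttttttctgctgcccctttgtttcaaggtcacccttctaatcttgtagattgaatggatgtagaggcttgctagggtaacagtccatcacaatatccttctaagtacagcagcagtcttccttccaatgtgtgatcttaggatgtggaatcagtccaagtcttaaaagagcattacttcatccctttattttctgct
IL33 second start: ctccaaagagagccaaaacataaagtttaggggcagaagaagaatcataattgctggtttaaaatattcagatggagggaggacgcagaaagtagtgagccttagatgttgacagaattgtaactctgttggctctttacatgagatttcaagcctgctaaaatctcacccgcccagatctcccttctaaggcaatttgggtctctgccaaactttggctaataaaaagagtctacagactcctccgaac
The motifs were the AP-1 site TGANTCA, the STAT site TTCNNNGAA, the TATA box TATAAA and the kappaB consensus, and they were searched separately, so matches may overlap. Of all 35116 windows of this length, 6.57% held the AP-1 site, 6.57% the STAT site, 10.7% the TATA box and 9.96% the kappaB consensus. The absence of a match says only that these letters are not in these windows. Which start DLD1 cells use was not measured, since the values do not separate the starts.

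The arrays of the groups stood apart in the 3′ signal excess of control probe sets, a measure of RNA quality, and the knockdown could not be read. CDKL1 itself had log2 levels of 4.25, 4.20 and 4.08 in CDKL1 shRNA arrays, against 4.51, 4.42 and 4.17 in control shRNA arrays, all of them below the highest background control probe set of their array. Its log2 difference was -0.19 (SE 0.09) and did not pass (limma, adjusted p = 0.219), so the groups are named as labelled. The excess of 3′ over 5′ signal in the ACTB controls (a log2 difference), which grows as RNA is degraded, was 1.52, 1.73 and 1.55 in CDKL1 shRNA arrays, against 1.40, 1.41 and 1.39 in control shRNA arrays. The GAPDH controls gave 0.25, 0.30 and 0.28 in CDKL1 shRNA arrays, against 0.19, 0.20 and 0.22 in control shRNA arrays. The groups did not overlap in either measure. An exact two-sided permutation test gave p = 0.1 for each, the smallest that 3 arrays against 3 allow. Over all genes, 16.8% were called at an adjusted p of 0.05 by limma, 8.97% higher and 7.79% lower in CDKL1 shRNA arrays.

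IL33 was 2.09-fold lower in CDKL1 shRNA cells than in control shRNA cells. Its brightest probe set, 11743859_x_at, read 7.36, 7.42 and 7.53 in CDKL1 shRNA arrays, against 8.57, 8.52 and 8.41 in control shRNA arrays. Every CDKL1 shRNA array lay below every control array, and the gap between the groups was far wider than the spread within either. The group means were 7.44 ± 0.09 in CDKL1 shRNA arrays and 8.50 ± 0.08 in control shRNA arrays (SD, n = 3 each), a log2 difference of -1.06 with a 95% interval from -1.21 to -0.91. On the linear scale this is a change of -52.1%, with an interval from -56.9% to -46.7%. By absolute difference IL33 ranked 29 of 18132 genes, the value for which it was chosen. The array reads total RNA of a culture, in which fewer cells that express a gene and less of its RNA per cell cannot be told apart.

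The other probe sets of IL33 gave differences of the same size. Probe set 11743858_at read 6.73, 6.78 and 6.93 in CDKL1 shRNA arrays, against 7.96, 7.96 and 7.80 in control shRNA arrays, a log2 difference of -1.09 (SE 0.07). Probe set 11751426_a_at read 6.00, 5.99 and 6.16 in CDKL1 shRNA arrays, against 7.11, 7.13 and 7.10 in control shRNA arrays, a log2 difference of -1.06 (SE 0.06). The 3 probe sets thus spanned only -1.09 to -1.06, although the brightest carries the suffix _x of probe sets that can bind related transcripts and the others do not. Probe sets of 1 gene may share probes and read the same RNA, so they are not independent replicates. With the ACTB 3′ excess as a covariate, the log2 difference of IL33 was -1.07, as large as without it. That covariate is partly confounded with the group, and whether RNA quality plays a part in the difference was not tested.

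**Figure D1:**
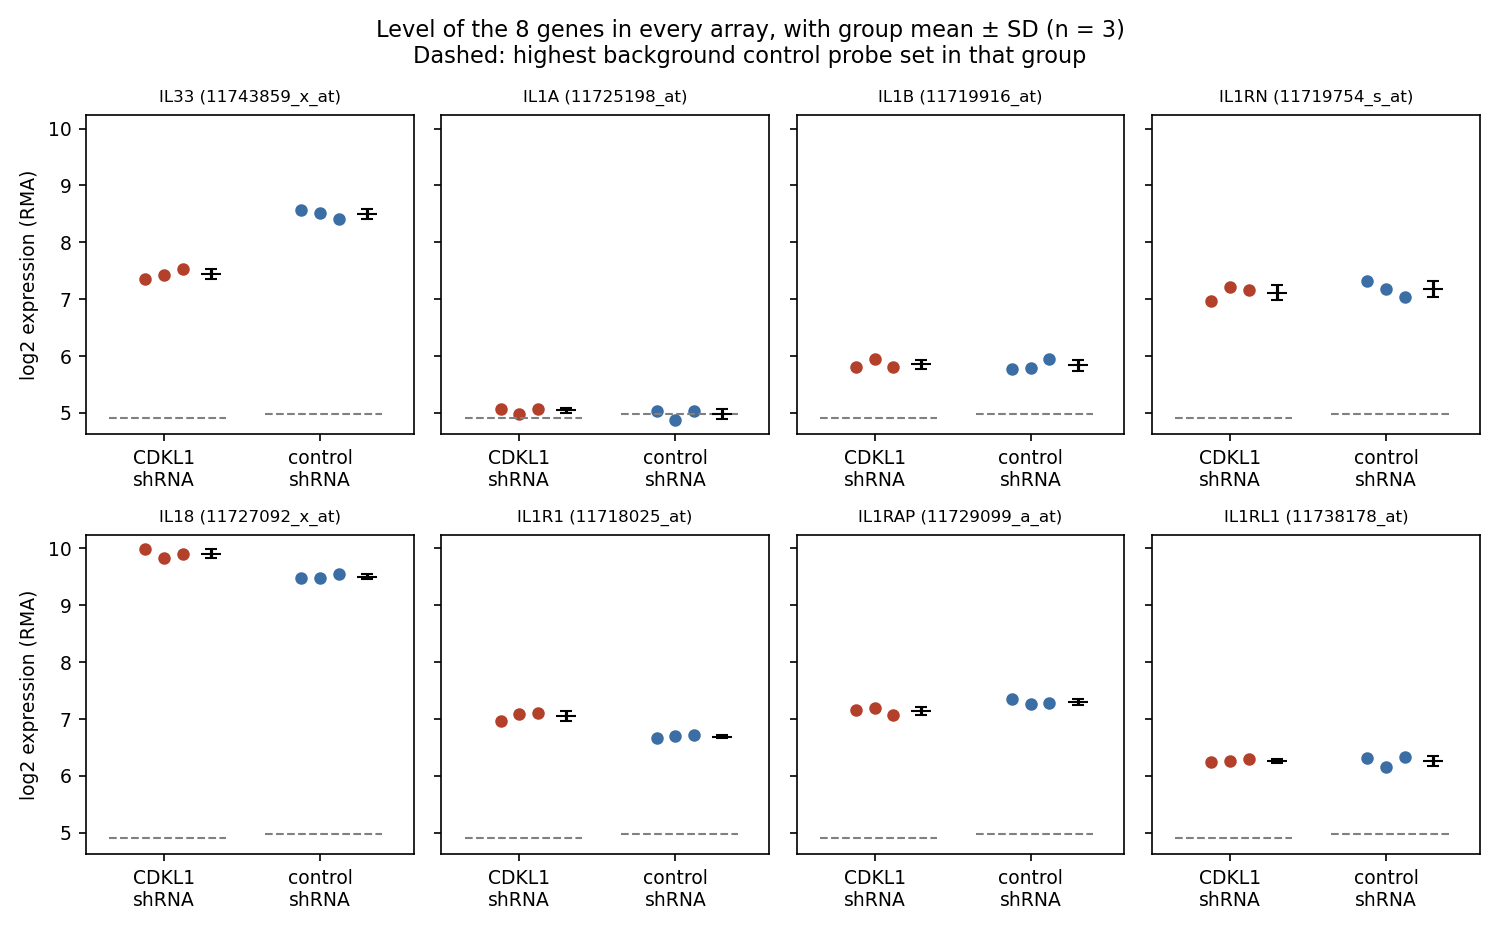
Log2 expression level (RMA, vertical axis) of the brightest probe set of each of the 8 genes, with 1 point per array and the group mean ± SD beside the points (n = 3). CDKL1 shRNA arrays are on the left and control shRNA arrays on the right of each panel, and the dashed line is the highest background control probe set (10 to 16 G or C bases) over that group's arrays. IL33 is lower in all 3 CDKL1 shRNA arrays, IL18 and IL1R1 are higher, IL1RAP is slightly lower, and IL1A lies at the background line.

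Of the other cytokine genes, IL18 was higher in CDKL1 shRNA cells, while IL1A and IL1B differed by no more than their spread. IL18, which is made constitutively by intestinal epithelium, read 9.99, 9.84 and 9.91 in CDKL1 shRNA arrays, against 9.48, 9.48 and 9.56 in control shRNA arrays. The groups did not overlap, and the log2 difference was 0.40 with a 95% interval from 0.28 to 0.53, or 32.4% more. The value of IL18 rests on 1 probe set with the suffix _x. With the ACTB covariate the difference was 0.53 and the fit no longer called it.

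IL1B read 5.81, 5.94 and 5.81 in CDKL1 shRNA arrays, against 5.78, 5.79 and 5.95 in control shRNA arrays. The groups overlapped, and the log2 difference was 0.02 with an interval from -0.14 to 0.17. IL1A read 5.07, 4.98 and 5.07 in CDKL1 shRNA arrays, against 5.03, 4.88 and 5.03 in control shRNA arrays, where control replicate 2 was below the highest background control probe set. Its difference of 0.06 (interval -0.07 to 0.20) is therefore a difference between levels at the edge of the background. IL1A and IL1B each have 1 probe set.

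The antagonist gene IL1RN also overlapped between the groups. Its brightest probe set read 6.97, 7.21 and 7.17 in CDKL1 shRNA arrays, against 7.33, 7.18 and 7.04 in control shRNA arrays, a log2 difference of -0.07 with an interval from -0.28 to 0.15. The second probe set of IL1RN gave -0.08 (interval -0.20 to 0.04). These intervals leave room for a fall of up to 17.6% by the brightest probe set and a rise of up to 10.8%.

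Among the receptor genes, IL1R1 was higher by its brightest probe set and the others differed little. IL1R1, the signalling receptor for IL-1 alpha and IL-1 beta, read 6.96, 7.08 and 7.12 in CDKL1 shRNA arrays, against 6.66, 6.70 and 6.72 in control shRNA arrays. The groups did not overlap, and the log2 difference was 0.36 with an interval from 0.23 to 0.49, or 28.5% more. The dimmer probe set of IL1R1, 11756953_a_at, did not show this: it read 5.61, 5.65 and 5.88 in CDKL1 shRNA arrays, against 5.48, 5.85 and 5.78 in control shRNA arrays, a difference of 0.01 (interval -0.25 to 0.27). Averaged over both probe sets the log2 difference of IL1R1 was 0.19, and with the ACTB covariate it was 0.30, and in neither did the fit call it.

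IL1RAP, the co-receptor shared by IL-1 and IL-33, was slightly lower. It read 7.16, 7.19 and 7.06 in CDKL1 shRNA arrays, against 7.35, 7.27 and 7.28 in control shRNA arrays. These groups did not overlap, but the log2 difference was only -0.16 (interval -0.28 to -0.04). The other 3 probe sets of IL1RAP gave -0.15 to -0.05, each with overlapping groups, and the dimmest of them was below the background controls on every array.

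IL1RL1, which encodes the IL-33 receptor ST2, did not differ beyond its spread by its brightest probe set. Its brightest probe set read 6.24, 6.27 and 6.31 in CDKL1 shRNA arrays, against 6.31, 6.16 and 6.33 in control shRNA arrays, a difference of 0.00 with an interval from -0.13 to 0.14. Of its 5 probe sets this was the 1 above background on all arrays. The remaining ones gave log2 differences of -0.23 to 0.14, and 2 of them held identical values and count as 1 reading. Probe set 11759145_s_at was above background on 2 control shRNA arrays and 0 CDKL1 shRNA arrays. Its difference was -0.23 (interval -0.43 to -0.02), with overlapping groups. Whether ST2 transcript is present in DLD1 cells thus rests mainly on a single probe set.

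**Figure D2:**
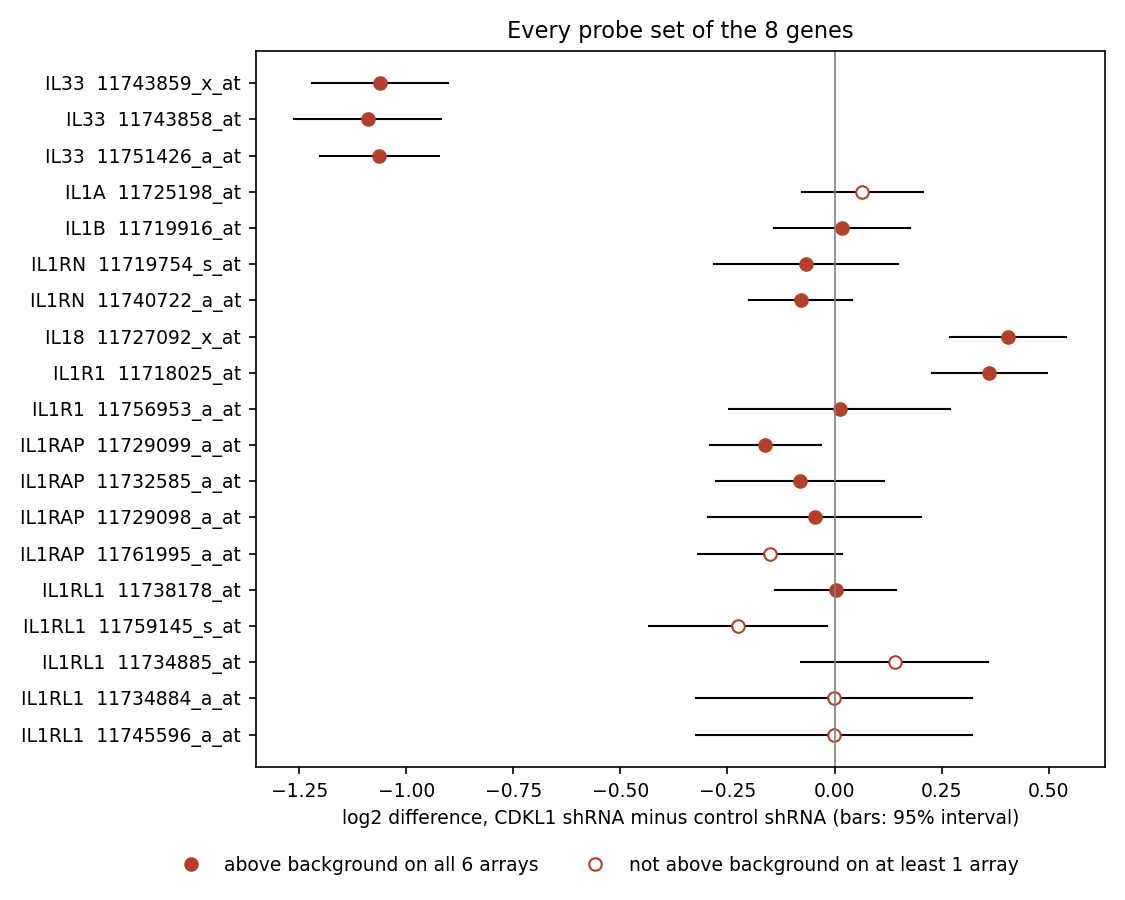
Log2 difference (CDKL1 shRNA minus control shRNA, horizontal axis) of all 19 probe sets of the 8 genes, with bars for the 95% interval from the fit over all single-symbol probe sets. Filled points were above the background controls on all 6 arrays and open points were not. The 3 IL33 probe sets lie together at -1.09 to -1.06, and the IL1R1 probe sets are split between 0.36 and 0.01.

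Over the 8 genes, 3 (IL33, IL18 and IL1R1) were among the genes called by the fit, 2 higher and 1 lower, which is 37.5% beside 16.8% of all genes, and the groups did not overlap for 4 of the 8, beside 35.7% of all genes. With the ACTB covariate IL18 and IL1R1 were no longer called, which leaves 1 of 8, and with averaged probe sets IL1R1 was not, which leaves 2. Nothing is read from these counts, since results of the same comparison were known when the genes were chosen. The ACTB values of the groups did not overlap, so that covariate and the group are partly confounded. With it the genes called fell from 3040 to 219 over all genes. Whether RNA quality accounts for any lost call was not tested. No filter on low values was applied, so all 8 are counted. Of the 8, 7 were above the background controls on all 6 arrays and IL1A on 5. This limit is a lenient one: background control probe sets with more G and C bases reached 10.8, and the base content of the probes of these genes was not available to the comparison.

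Under every alternative tried IL33 remained at -1.11 to -1.02 on the log2 scale. IL18 stayed between 0.37 and 0.53 and IL1R1 between 0.19 and 0.41.

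**Figure D3:**
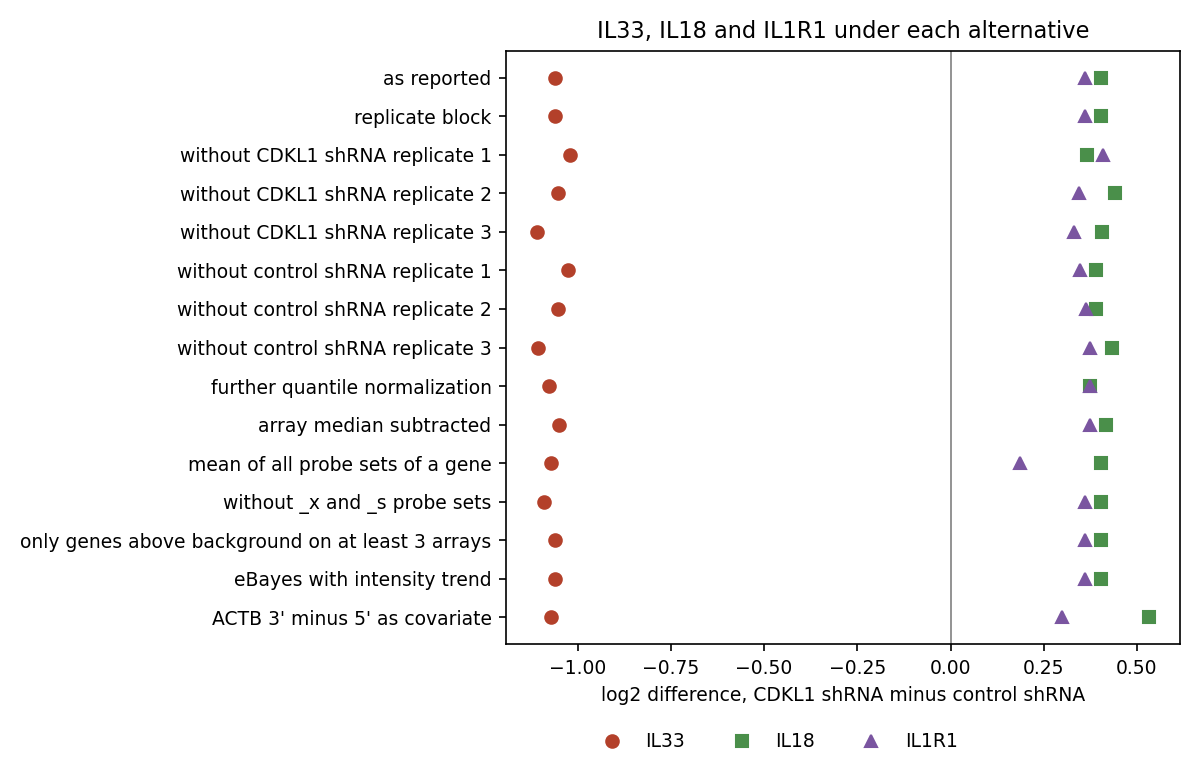
Log2 difference (CDKL1 shRNA minus control shRNA, horizontal axis) of IL33, IL18 and IL1R1 as reported and under 14 alternatives (vertical axis), which change the arrays used, the normalisation, the probe set rule, the filter, the variance prior or the covariate. IL33 stays between -1.11 and -1.02, and IL1R1 is lowest, at 0.19, when its probe sets are averaged.

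Of the 7 genes for the other ligands, antagonists and the IL-18 binding protein (IL36A, IL36B, IL36G, IL36RN, IL37, IL1F10 and IL18BP), 0 rose and 0 fell by limma, beside 16.8% of all genes called. Of them 1 had an unadjusted p under 0.05, and their median log2 difference was -0.07, beside -0.01 over all genes tested. Of these 7, 4 were above the background controls on all arrays and 2 on no array. Of the 7 other receptor genes (IL1R2, IL1RL2, IL18R1, IL18RAP, SIGIRR, IL1RAPL1 and IL1RAPL2), again 0 passed and 1 had an unadjusted p under 0.05, with a median of -0.09. Of these receptor genes 3 were above the background controls on all arrays and 4 on no array. IL1R2, a decoy receptor for IL-1, averaged 7.58 in CDKL1 shRNA arrays and 7.54 in control shRNA arrays, and SIGIRR, an inhibitory receptor of gut epithelium, averaged 8.53 in CDKL1 shRNA arrays and 8.49 in control shRNA arrays. Both chains of the IL-18 receptor, IL18R1 and IL18RAP, were below the background controls on every array, as were IL1RAPL1 and IL1RAPL2. In the RefSeq gene order of GRCh38.p14, IL1R2, IL1R1, IL1RL2, IL1RL1, IL18R1 and IL18RAP follow one another on chromosome 2, and the cluster of IL1A, IL1B, IL37, the IL36 genes, IL1F10 and IL1RN lies further along it, whereas IL33 is on chromosome 9. Among the 6 receptor genes of the first cluster the difference of IL1R1, by its brightest probe set, was the largest in size. IL1R1 was chosen with results of this comparison known, and its dimmer probe set gave 0.01, so nothing is read from this rank.

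Of 19 measured genes that carry the signal from the receptors 1 rose and 1 fell, 10.5% beside 16.8% of all genes, with a median log2 difference of -0.00. The groups did not overlap for 9 of the 19, or 47.4% beside 35.7% of all genes, among them IRAK2, an IRAK family gene named after its values were seen, with a difference of -0.23 that did not pass (limma, adjusted p = 0.0589). CHUK, which encodes the IkappaB kinase subunit alpha, rose by 0.19 on the log2 scale (SE 0.05, limma, adjusted p = 0.0425). It read 9.31, 9.31 and 9.30 in CDKL1 shRNA arrays, against 9.04, 9.14 and 9.18 in control shRNA arrays. PELI2, a ubiquitin ligase that acts on IRAK kinases, fell by 0.38 (SE 0.08, adjusted p = 0.0228, limma), from a probe set below the background controls on every array, and averaged over its probe sets the difference was -0.14 and did not pass (adjusted p = 0.231). CHUK lost its call without any 1 of the 6 arrays (adjusted p = 0.0585 to 0.115), and PELI2 without CDKL1 shRNA replicate 1 or 3 or control replicate 1 or 3 (highest adjusted p = 0.0822). The adaptor gene MYD88 averaged 9.13 in CDKL1 shRNA arrays and 9.07 in control shRNA arrays, and IRAK1 averaged 9.75 in both, and neither passed.

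Of 26 measured genes of cytokine maturation and release 3 rose and 2 fell, with a median log2 difference of 0.02. That is 19.2% beside 16.8% of all genes, a share near the background, and the groups did not overlap for 8 of the 26 (30.8%). The largest of these changes was that of CASP4, an inflammatory caspase that senses lipopolysaccharide in human cells. CASP4 read 10.34, 10.27 and 10.28 in CDKL1 shRNA arrays, against 9.81, 9.96 and 9.97 in control shRNA arrays, a rise of 0.39 (SE 0.06, limma, adjusted p = 0.00501). CASP8, the initiator caspase of death receptors, rose by 0.21 (SE 0.05, adjusted p = 0.0267), and NEK7, a kinase that binds the NLRP3 sensor, rose by 0.18 (SE 0.05, adjusted p = 0.0337). CAPNS1, the small subunit of the calpains, proteases that cut the IL-1 alpha precursor, fell by 0.22 (SE 0.05, adjusted p = 0.0177). TMED10, described as a carrier for cytokines that lack a signal peptide, fell by 0.18 (SE 0.04, adjusted p = 0.0297). The caspase gene CASP1, whose product cuts IL-1 beta and IL-18, was below the background controls on every array, with means of 3.87 in CDKL1 shRNA arrays and 3.77 in control shRNA arrays.

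Only the CASP4 call of these 5 passed without each of the arrays in turn (adjusted p = 0.00985 to 0.0233), and with the ACTB covariate its difference was 0.44 and did not pass (adjusted p = 0.116). NEK7 lost its call without any 1 of the 6 arrays (adjusted p = 0.0559 to 0.116). CASP8 did so without each array other than CDKL1 shRNA replicate 1 (highest adjusted p = 0.0927), TMED10 without each array other than control replicate 1 (highest adjusted p = 0.104), and CAPNS1 without CDKL1 shRNA replicate 2 or control replicate 3 (adjusted p = 0.0613 and adjusted p = 0.0682). Averaged over its probe sets, CASP8 had a difference of 0.11 (adjusted p = 0.112) and NEK7 one of 0.09 (adjusted p = 0.322). Without probe sets of the suffixes _x and _s neither passed, CASP8 at 0.18 (adjusted p = 0.396) and NEK7 at 0.16 (adjusted p = 0.0578). With the ACTB covariate the difference of CASP8 was 0.11 (adjusted p = 0.51), and CAPNS1, TMED10 and NEK7 did not pass either (adjusted p = 0.266 to 0.369).

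Of 15 measured genes that IL-1 is known to induce through NF-kappaB 8 rose and 1 fell, 60.0% beside 16.8% of all genes, with a median log2 difference of 0.28. The list was written with rises of several of its members already known, so it is no independent evidence of a direction. The neutrophil-attracting chemokine gene CXCL8 read 10.65, 10.69 and 10.63 in CDKL1 shRNA arrays, against 9.68, 9.72 and 9.61 in control shRNA arrays. CXCL3, of the same chemokine class, read 9.56, 9.64 and 9.46 in CDKL1 shRNA arrays, against 8.52, 8.32 and 8.43 in control shRNA arrays. For both genes every CDKL1 shRNA array was above every control array, by log2 differences of 0.99 (SE 0.05, adjusted p = 0.000105, limma) and 1.13 (SE 0.07, adjusted p = 0.000207). These are the 2 genes of the list that also passed with the ACTB covariate, at 0.93 (adjusted p = 0.0148) and 1.02 (adjusted p = 0.0246).

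CXCL2 rose by 0.54, CXCL1 by 0.44, the NF-kappaB feedback gene TNFAIP3 by 0.41 and the chemokine gene CCL20 by 0.37, with adjusted p of 0.000963 to 0.00419 (limma). NFKBIZ, which encodes a nuclear IkappaB protein, and the adhesion molecule gene ICAM1 made up the 8 rises, with differences of 0.28 and 0.48, and were named after their values were seen. The CXCL1 call came from a probe set that can bind related transcripts: without probe sets of the suffixes _x and _s its difference was 0.05 and did not pass (adjusted p = 0.622). The 1 gene of the list that fell, LCN2, an iron-sequestering antimicrobial protein gene named after its values were seen, had a difference of -0.19 (SE 0.05, adjusted p = 0.0383). Other classical IL-1 targets, also named after their values were seen, did not pass: NFKBIA averaged 10.82 in CDKL1 shRNA arrays and 10.88 in control shRNA arrays, and IL6 averaged 5.19 in CDKL1 shRNA arrays and 5.39 in control shRNA arrays.

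Of the 6 other epithelial alarmin genes 0 passed by limma, beside 16.8% of all genes, and 1 had an unadjusted p under 0.05. Their median log2 difference was -0.02, and 3 of the 6 were above the background controls on all arrays. HMGB1, a nuclear protein that also acts as an alarm signal when released, averaged 13.40 in CDKL1 shRNA arrays and 13.49 in control shRNA arrays. TSLP, which with IL-33 and IL-25 starts type 2 responses at epithelia, was below the background controls on every array, and IL25 averaged 6.49 in CDKL1 shRNA arrays and 6.45 in control shRNA arrays. Over the 6 lists together 12 of 80 genes rose and 4 fell, 20.0% beside 16.8% of all genes, and 9 of these 16 calls belong to the IL-1-induced genes.

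**Figure D4:**
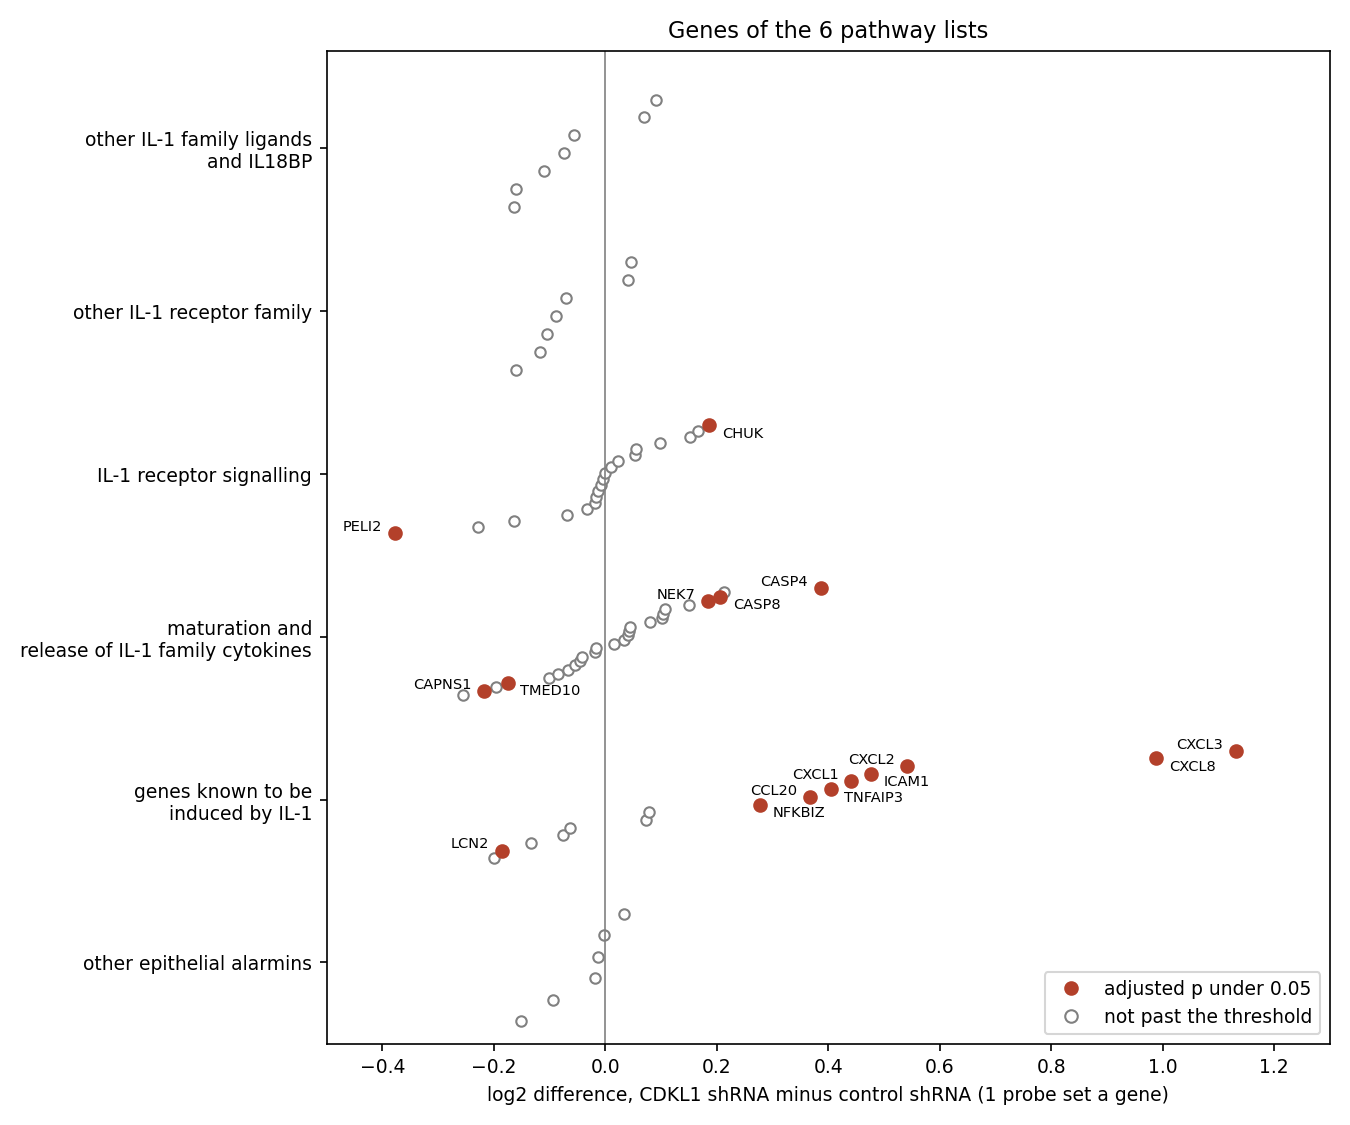
Log2 difference (CDKL1 shRNA minus control shRNA, horizontal axis) of the 80 measured genes of 6 pathway lists (vertical axis, genes ordered within a list by their difference), 1 probe set a gene. Filled, named points passed an adjusted p of 0.05 and open points did not; the 2 lists of other family ligands and receptors hold 0 filled points, and CXCL3 and CXCL8 stand farthest to the right.

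Markers of the cells that can supply or sense IL-33 were set beside these values. All 10 epithelial markers were above the background controls on all arrays. So were 6 of 8 endothelial, 5 of 8 fibroblast and 4 of 9 leukocyte and mast cell markers. This lenient limit thus does not tell the cell types apart. EPCAM averaged 13.53 in CDKL1 shRNA arrays and 13.52 in control shRNA arrays. Within the epithelial list 2 of 10 were called, 20.0% beside 16.8% of all genes, and 6 had an unadjusted p under 0.05. Of these 6, CDH1 (-0.12), KRT8 (-0.15) and KRT18 (-0.13) were lower and CDH17 (0.15) was higher without being called. They were named after their values were seen. KRT20, a keratin of differentiated colonocytes, rose by 0.52 (SE 0.05, limma, adjusted p = 0.000746), and VIL1, a microvillus protein gene, fell by 0.57 (SE 0.12, adjusted p = 0.019). VIL1 averaged only 5.29 in CDKL1 shRNA arrays and 5.85 in control shRNA arrays. The endothelial marker PECAM1 was near that level, at 5.93 in CDKL1 shRNA arrays and 5.84 in control shRNA arrays. Of 8 endothelial and 8 fibroblast markers 0 passed by limma, beside 16.8% of all genes, and 0 had an unadjusted p under 0.05. Median log2 differences were -0.01 for the endothelial and -0.00 for the fibroblast list. Of 9 measured leukocyte and mast cell markers 1 rose (11.1% beside 16.8% of all genes), KIT, by 0.23 (SE 0.05, limma, adjusted p = 0.0136). KIT was above the background controls on all arrays, whereas 4 of the 9 were above them on no array. The leukocyte gene PTPRC and the mast cell genes CPA3 and HDC were among those 4.

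The genes whose values over the 6 arrays were most like those of IL33 were AQP3, POLR2E, RCCD1, TYMS and CADM1, with Pearson r from 0.998 for CADM1 to 0.9996 for AQP3. They were picked as the highest of 14492 genes above background on all arrays, of which 91 had an r over 0.99, and the 6 arrays fall into the 2 groups, so a difference between the groups alone gives a high r. With the group means removed, r with IL33 ranged from 0.907 for CADM1 to 0.997 for POLR2E. These values come from the same 6 arrays on which the genes were picked. The differences themselves were smaller than that of IL33, at -0.28 for the aquaporin gene AQP3, -0.09 for the RNA polymerase II subunit gene POLR2E, -0.35 for RCCD1, -0.30 for the thymidylate synthase gene TYMS and -0.42 for the cell adhesion gene CADM1. That of POLR2E did not pass (limma, adjusted p = 0.160).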

How the data were processed

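The deposited values are on the log2 scale, for 49395 probe sets on each of 6 arrays. They were made with RMA, per the submitters' processing notes. That method corrects background, normalises between arrays and summarises the probes of a probe set, and it compresses differences of dim probe sets. Which version they ran was not given in the sources used here. Total RNA (6 µg) was labelled as biotinylated cRNA, per the labels.

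The 102 control probe sets were left out of gene tests. Probe sets were named through the platform annotation, in which 44988 had 1 symbol, 1832 several and 2473 others none. The Entrez identifiers of all 8 members were found in the RefSeq table. Each of 18132 genes was read from its brightest single-symbol probe set. The groups were compared by a linear model in limma 3.58.1 in R 4.3.3 (lmFit, eBayes, two-sided), with Benjamini-Hochberg adjustment over all genes and a threshold of 0.05. Intervals are 95% intervals of that fit. SE and intervals of probe sets other than the brightest came from the same fit over all single-symbol probe sets. A value was above background where it exceeded the highest background control probe set with 10 to 16 G or C bases on that array.

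The members and all lists were chosen with earlier results of these data known. Named genes were all members, from each pathway list the called genes (at most 6, by adjusted p), and the 5 genes most correlated with IL33. Of the 86 listed pathway genes 80 had a single-symbol probe set. In simulated data on the 18132 genes, 52% of genes changed 1.25-fold, 82% changed 1.5-fold, 96% changed 2-fold and 100% changed 3-fold were recovered (50 genes each), with 9 false calls. The simulation changed 200 genes, fewer than the 3040 called in the data, so recovery in the data may differ. Labels do not say that samples of a group are separate cultures, so p-values cover only the spread between the samples at hand, which may be technical. The number of arrays limits the precision. Alternatives were a replicate block, leaving out each array, further normalisations, other probe set rules, a filter on dim genes, an intensity trend and the ACTB covariate. Figures were made with Python 3.11.15 and matplotlib 3.10.9.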

Additional observations from a re-analysis of the deposited data

How the results depend on the processing

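IL33 moved by less than the spread between replicates under all 14 alternatives, and with 1 array left out its log2 difference was -1.11 to -1.02. For the other 7 members 92 of 98 values moved by less than that spread, 6 moved further, and 0 called differences turned in sign. The count of genes called, 3040, was 1803 with the replicate block, 219 with the ACTB 3′ minus 5′ covariate and 1633 to 2399 with 1 array left out, in fits with fewer arrays. It was 2026 without CDKL1 shRNA replicate 2, 1633 without CDKL1 shRNA replicate 3, 1839 without control replicate 2 and 1865 without control replicate 3. The count of pathway genes called, 16, was 9 with the replicate block, 2 with the covariate and 8 to 12 with 1 array left out (9 without CDKL1 shRNA replicate 2, 10 without CDKL1 shRNA replicate 3 or control replicate 2, 8 without control replicate 3). The count of members called, 3, was 1 with the covariate, 2 with averaged probe sets and 3 under the other 12 alternatives. A further quantile normalisation gave 10 rises and 6 falls among the pathway genes in place of 12 and 4. Over all genes it gave 1542 rises and 1690 falls in place of 1627 and 1413. For the 13 named pathway genes 56 of 181 values no longer passed and 0 were reversed. The fits with 1 array left out hold fewer arrays, and the cause of the lost calls was not tested. The replicate numbers did not pair the samples: deviations of same-numbered arrays correlated at -0.03, -0.12 and 0.07. Against background control probe sets with any number of G or C bases, 0 of 8 members rather than 7 were above background on all arrays. The count thus depends on the controls chosen, and a level near them shows neither expression nor its absence by itself.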
